A study of Mus musculus with 8 samples.

Results

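The 10 genes described here encode amino acid transporters that respond to cellular stress, namely Slc7a11, Slc3a2, Slc7a5, Slc7a1, Slc7a6, Slc1a4, Slc1a5, Slc38a1, Slc38a2 and Slc6a9. They were chosen by name, with earlier results of these data known, and all 10 were found among the 21879 genes of the deposited table. Messenger RNA was sequenced from TCMK-1 cells, a transformed mouse kidney epithelial line, in 4 libraries of cells with a control shRNA (labelled smgGDS control) and 4 of cells with an shRNA against smgGDS (labelled smgGDS shRNA). All 8 libraries came from cells given 20 µM cisplatin, a chemotherapy agent that damages DNA and is toxic to the kidney tubule. Untreated cells were not analysed here, and every difference below is knockdown against control under the drug. The labels do not say whether a group is more than a single line or clone, nor that its libraries came from separate cultures. The p-values thus rest on variation among these libraries alone, and that variation may be technical.

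smgGDS, the product of Rap1gds1, is a chaperone and exchange factor for several small GTPases, and the study's title links it to endoplasmic reticulum stress through the kinase PERK. When amino acids run short or unfolded proteins accumulate, kinases such as GCN2 and PERK phosphorylate eIF2, and translation of the transcription factor ATF4 goes up. ATF4 binds C/EBP-ATF response elements and switches on genes for amino acid uptake and synthesis, several of these transporters among them. In tubule cells cystine import also feeds glutathione, a thiol that reacts with cisplatin and protects against lipid peroxidation.

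Libraries held 11560977 to 16059158 expected counts, so 3 counts equal 0.187 to 0.259 CPM (counts scaled to a common library total). The targeted gene Rap1gds1 had 181 to 276 counts in the controls and 30 to 38 in the knockdown, a fall to 16.2% of control (edgeR adjusted p = 2.72e-19), and every library matched its label. Knockdown replicate 4 stood apart on the first principal component (29.2% of the variance), at 20.9, while its 3 fellow libraries had 8.86 to 9.58, and values without it are given where it decides a call. Markers of the labelled epithelial identity were low, nearly absent or at 0. The epithelial list summed to 24.7 to 27.6 CPM (controls) and 22.6 to 27.8 CPM (knockdown). Its highest members were Krt19, with means of 10.1 (control) and 9.93 CPM (knockdown), and Pax8, with 8.97 and 9.33 CPM. The cadherin Cdh1 had at most 5 counts in any library, and the proximal tubule factor Hnf4a was at 0. Among markers of other cell types, all 3 tested of 6 fibroblast and pericyte genes (Col1a1, Dcn and Pdgfrb) were higher in the knockdown. That list summed to 280.3 to 305 CPM in control libraries and to 327 to 378 CPM in knockdown libraries. Nearly all of it was Col1a1, with means of 281 (control) and 328 CPM (knockdown). The endothelial list summed to 7.61 to 9.58 and 11.9 to 13.8 CPM, nearly all of it Flt1. The leukocyte list summed to 137 to 146 and 117 to 131 CPM, with Cd3e and Adgre1 at 0 and at most 1 count of Ptprc. Its highest members were Cd14 and Cd68. Cd14 was lower in the knockdown (log2 fold change -0.36, edgeR adjusted p = 1.12e-05), with means of 76.6 (control) and 59.6 CPM (knockdown). Cd68, with means of 59 and 56.0 CPM, did not pass the same test. The part of these markers in the transporter results was not tested. In such bulk samples a lower share of cells with a transcript and less of it per cell cannot be told apart.

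The 10 transcripts differed widely in abundance. Levels of different genes are compared here as the authors' FPKM, fragments scaled to transcript length and library total, because it corrects for transcript length. Slc3a2 stood above all the others at 329 ± 9.45 FPKM in controls and 355 ± 6.16 in the knockdown (SD, n = 4 each), a control level above that of 97.3% of the tested genes. Slc38a2 (59.7 ± 4.10 FPKM in controls), Slc7a5 (55.8 ± 1.66) and Slc1a5 (49.9 ± 0.644) formed a second tier. Slc7a6 (12.9 ± 1.33), Slc1a4 (12.2 ± 0.322), Slc6a9 (6.26 ± 0.409) and Slc7a1 (5.41 ± 0.372) followed. Slc7a11 at 1.19 ± 0.0985 FPKM and Slc38a1 at 0.380 ± 0.0707 were the lowest, above only 19.3% and 5.42% of tested genes. In controls the neighbours Slc38a2 and Slc7a5, and Slc7a6 and Slc1a4, overlapped in this order. The ranges of Slc6a9 and Slc7a1 only met, at 5.74 FPKM, and no other neighbours overlapped.

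**Figure D1:**
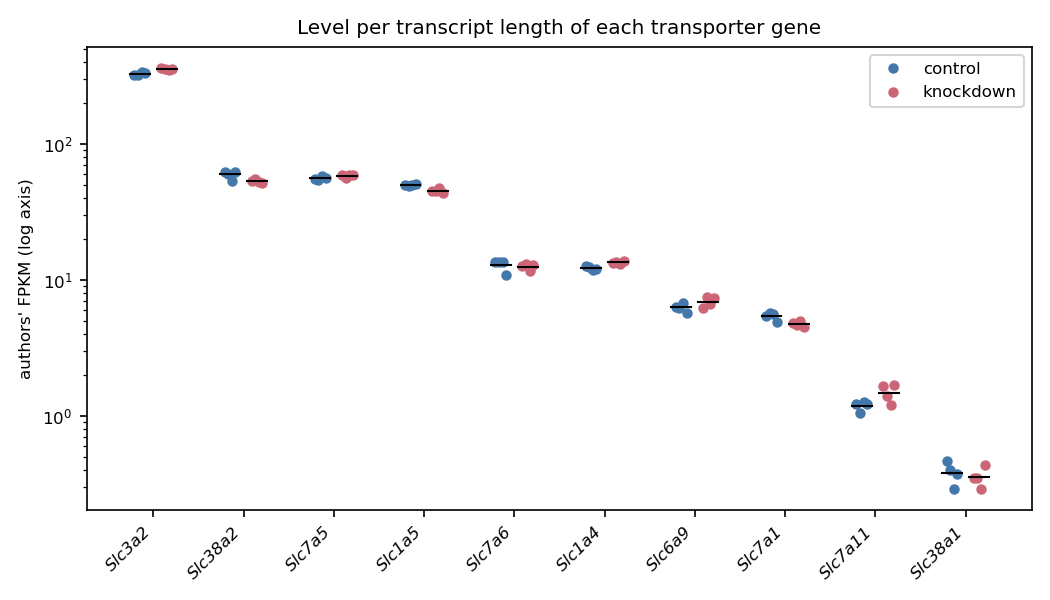
Authors' FPKM of each transporter gene (log axis), ordered by the control mean, with points for the 4 control and 4 knockdown libraries and lines for group means. Slc3a2 lies between 319.7 and 362 FPKM and Slc38a1 between 0.29 and 0.46 FPKM.

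The order of 2 neighbouring pairs turned in the knockdown, a comparison within each library that no scaling factor between libraries can change. Slc38a2 was above Slc7a5 in 3 of 4 control libraries and in 0 of 4 knockdown libraries, where it ranged from 51.95 to 55.6 FPKM and Slc7a5 from 56.0 to 59.5. Slc7a6 was above Slc1a4 in 3 of 4 control libraries and in 0 of 4 knockdown libraries. The other close pair did not turn, with Slc6a9 above Slc7a1 in 4 of 4 control libraries and 4 of 4 knockdown libraries. All these pairs were picked for being close in level, and the turn was not tested.

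Of the 10 genes, 4 rose in the knockdown (Slc3a2, Slc7a5, Slc7a11 and Slc1a4), 1 fell (Slc38a2) and 5 did not pass the test. The test was edgeR's quasi-likelihood test, with p-values adjusted over the 11576 genes tested and a threshold of 0.05. Over all tested genes 20.2% passed, 11.1% upward and 9.15% downward, and the members' 5 of 10 is set beside that background as a description. All 10 passed the filter on low counts. The changes were small: the largest was 0.37 on the log2 scale, and the members' median log2 fold change, knockdown minus control as throughout, was 0.064, against -0.0033 over all genes. Groups did not overlap for 2 of the 10, Slc3a2 and Slc1a4, both higher in the knockdown, against 21.1% of all genes in either direction, 11.5% upward and 9.61% downward. Without knockdown replicate 4, Slc3a2, Slc7a5 and Slc1a4 kept their calls, and Slc7a11 and Slc38a2 lost theirs.

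**Figure D2:**
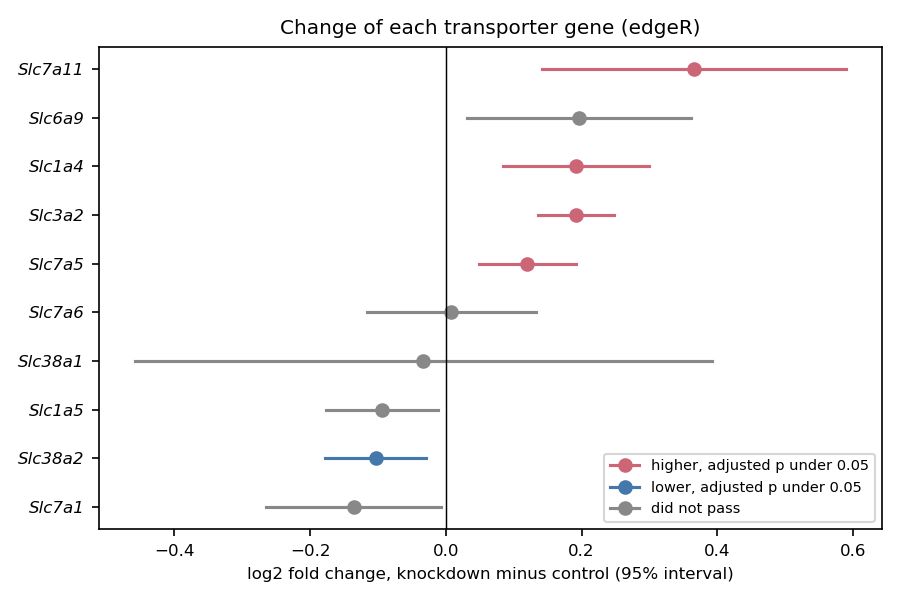
Log2 fold change of each transporter gene, knockdown minus control, with its 95% interval from edgeR, coloured where the adjusted p was under 0.05. The intervals of Slc3a2, Slc1a4, Slc7a5 and Slc7a11 lie above 0 and that of Slc38a2 below it, as do those of Slc1a5 and Slc7a1, which did not pass after adjustment, while Slc6a9 lies above 0 without passing.

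Slc3a2 encodes the CD98 (4F2) heavy chain, a single-pass glycoprotein that carries the SLC7 light chains to the cell surface through a disulfide bond. The gene (ncbi_17254) spans 8706882 to 8723369 on the minus strand of chromosome 19 (build GRCm38.p6, as for the other genes). It measured 796, 787, 842 and 813 CPM in control replicates 1 to 4 and 937, 927, 909 and 924 CPM in knockdown replicates 1 to 4. Every knockdown library was above every control library. The log2 fold change was 0.19 (SE 0.03, edgeR adjusted p = 1.16e-06), a rise to 114% of control (95% interval 110% to 119%). The call held in all 17 alternative analyses, with estimates from 0.11 to 0.21. Its counts were not whole in any of the 8 libraries, so some reads were shared with other features and its level is less certain.

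**Figure D3:**
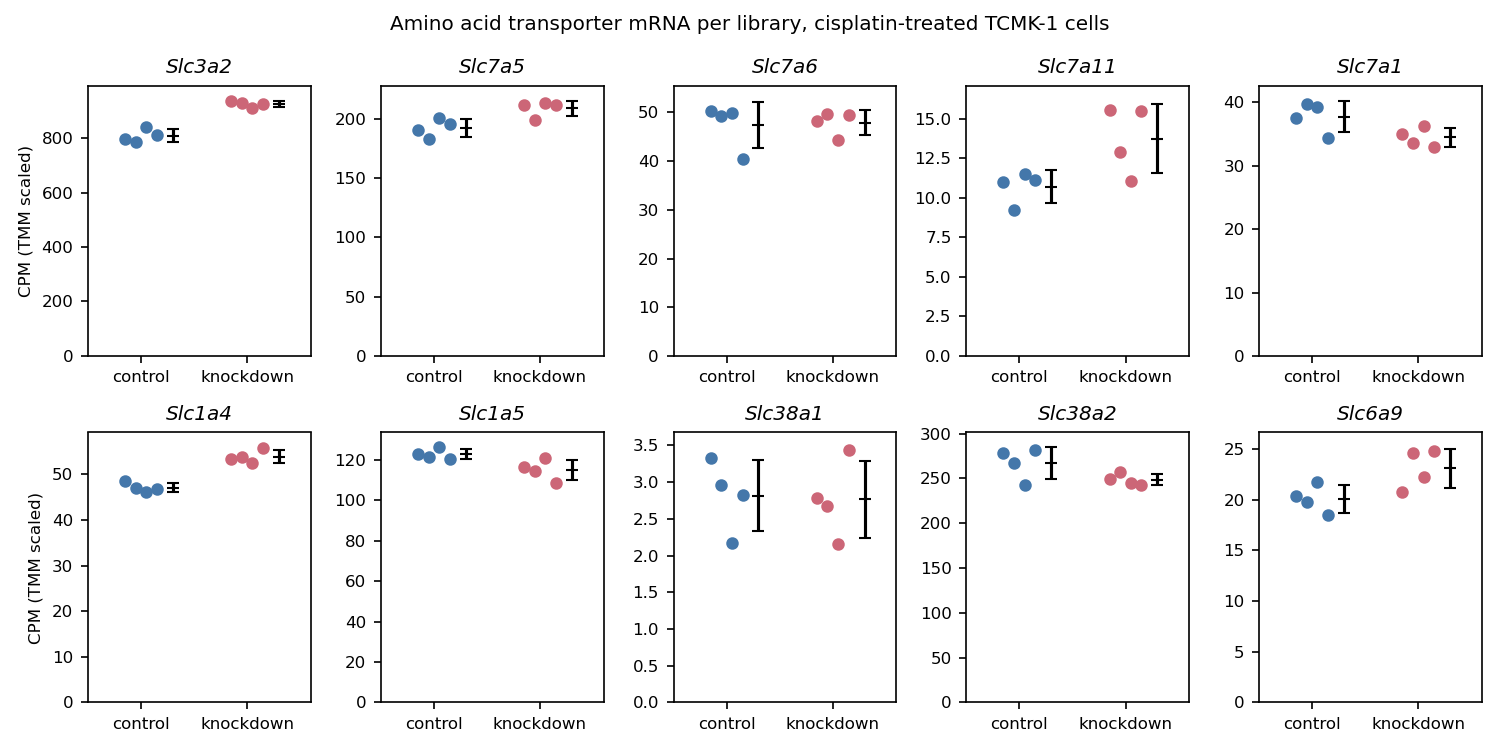
CPM after TMM scaling (trimmed mean of M values) of each transporter gene by library, with the group mean ± SD (n = 4) in black and axes that start at 0. Slc3a2 and Slc1a4 separate into non-overlapping groups, and the other 8 genes do not.

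Among the light chains, Slc7a5 encodes LAT1, the exchanger that brings in leucine and other large neutral amino acids (ncbi_20539, chromosome 8, 121881146 to 121907686, minus strand). It measured 190.4, 183, 201 and 196 CPM in control replicates 1 to 4 and 212, 199.5, 213 and 212 CPM in knockdown replicates 1 to 4. Knockdown replicate 2 lay just under control replicate 3, so the groups overlapped. The rise was 0.12 (SE 0.04, edgeR adjusted p = 0.012) and did not pass without control replicate 2 (0.097, edgeR adjusted p = 0.0693).

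Slc7a11 encodes xCT, which exchanges intracellular glutamate for cystine and so supplies cysteine for glutathione (ncbi_26570, chromosome 3, 50364936 to 50499087, minus strand). It had the largest estimate of the 10, on low counts of 130 to 218 per library. It measured 11.01, 9.23, 11.5 and 11.1 CPM in control replicates 1 to 4 and 15.6, 12.9, 11.05 and 15.5 CPM in knockdown replicates 1 to 4. Knockdown replicate 3 fell inside the control range, while replicates 1 and 4 were well above it. The estimate was 0.37 on the log2 scale (SE 0.11, edgeR adjusted p = 0.0149), a rise to 129% of control (95% interval 110% to 150.5%). The call was lost without control replicate 2 (0.30, edgeR adjusted p = 0.0695), knockdown replicate 1 (0.30, edgeR adjusted p = 0.0822) or knockdown replicate 4 (0.31, edgeR adjusted p = 0.0707). Its counts, too, were not whole in all 8 libraries.

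The promoters of Slc7a11 and Slc1a4 are shown because both genes rose and both windows hold the core of the C/EBP-ATF response element bound by ATF4. Windows of 300 bases, 250 before to 50 after a transcript start, came from RefSeq (GRCm38.p6) and held 11 windows for 7 of the 10 genes. They were searched on both strands for TGATGNAA and for TGACNNNGC, the core of the antioxidant response element bound by NRF2. Capitals mark the matches, here all to TGATGNAA or its reverse complement, and neither printed window holds TGACNNNGC. The Slc7a11 window is chr3:50443564-50443863 and the Slc1a4 window chr11:20332664-20332963, both read on the minus strand, 5′ to 3′. The Slc7a11 window sits at a RefSeq transcript start, inside the longer gene span given above.
Slc7a11: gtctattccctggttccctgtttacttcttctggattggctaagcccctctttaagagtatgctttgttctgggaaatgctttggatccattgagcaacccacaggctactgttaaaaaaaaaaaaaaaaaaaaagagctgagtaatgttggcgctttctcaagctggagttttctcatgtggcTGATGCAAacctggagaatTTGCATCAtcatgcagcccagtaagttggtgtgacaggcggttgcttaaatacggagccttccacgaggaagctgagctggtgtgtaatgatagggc
Slc1a4: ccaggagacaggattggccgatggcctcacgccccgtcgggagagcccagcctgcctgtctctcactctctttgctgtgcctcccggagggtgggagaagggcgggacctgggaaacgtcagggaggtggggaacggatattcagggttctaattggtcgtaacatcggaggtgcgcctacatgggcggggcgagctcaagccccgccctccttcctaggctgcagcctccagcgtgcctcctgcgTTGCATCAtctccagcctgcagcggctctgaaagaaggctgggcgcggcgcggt

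In Slc7a11 the matches were a facing pair, TGATGCAA at 66 to 59 bases before the start and TTGCATCA at 47 to 40 bases before it. In Slc1a4 the single TTGCATCA began 4 bases before the start. Over all genes 3.97% of 32851 windows held TGATGNAA, and 2.24% of the 11809 windows of tested genes did. The other 5 genes with windows, Slc3a2, Slc38a2, Slc7a1, Slc7a6 and Slc6a9, had no such match in them. TGACNNNGC occurred in 6 of the 11 windows, and in 12.4% of all windows and 14.4% of those of tested genes. These were the Slc38a2 window, 1 of 2 for Slc7a1, 2 of 3 for Slc6a9, and both for Slc7a6, which overlap and share the same site. A match describes the letters and does not show binding. Slc7a5, Slc1a5 and Slc38a1 were not searched.

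Slc7a6 encodes y+LAT2, which exchanges cationic for neutral amino acids (ncbi_330836, chromosome 8, 106168219 to 106198714, plus strand). It measured 50.3, 49.3, 49.9 and 40.4 CPM in control replicates 1 to 4 and 48.2, 49.7, 44.3 and 49.5 CPM in knockdown replicates 1 to 4. Control replicate 4 was the lowest library of all 8. Its log2 fold change was 0.0078 (SE 0.06, 95% interval -0.12 to 0.13, edgeR adjusted p = 0.955), and its sign turned negative without that library, without knockdown replicate 2 or 4, under library totals and on FPKM.

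Set against its partners, the heavy chain was in excess at the level of mRNA. The 6 light chain genes Slc7a5, Slc7a6, Slc7a7, Slc7a8, Slc7a10 and Slc7a11 summed to 70.1 ± 1.90 FPKM in controls and 72.5 ± 1.35 FPKM in the knockdown (SD, n = 4 each). Slc3a2 was 4.69 ± 0.109 times that sum in controls and 4.90 ± 0.116 times in the knockdown (SD, n = 4 each), and the groups overlapped. Slc7a5 made up 79.6 ± 1.69% of light chain FPKM in controls and 80.4 ± 1.23% in the knockdown, and Slc7a6 made up 18.4 ± 1.75% and 17.3 ± 1.06%. Slc7a11 made up 1.69 ± 0.118% and 2.04 ± 0.30%. Slc7a10 was listed at 0 in every library, and Slc7a7 and Slc7a8 never exceeded 0.22 FPKM, so the large neutral exchanger dominated the pool in both groups.

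Slc7a1 encodes CAT1, the uniporter for arginine and lysine that works without a heavy chain (ncbi_11987, chromosome 5, 148327410 to 148399904, minus strand). It measured 37.6, 39.8, 39.3 and 34.4 CPM in control replicates 1 to 4 and 35.03, 33.6, 36.3 and 32.9 CPM in knockdown replicates 1 to 4. The groups overlapped through control replicate 4. The log2 fold change was -0.14 (SE 0.06, edgeR adjusted p = 0.135), which did not pass.

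The 2 SLC1 genes had estimates of opposite sign. Slc1a4 encodes ASCT1, an exchanger of alanine, serine and cysteine (ncbi_55963, chromosome 11, 20302180 to 20332713, minus strand). It measured 48.5, 47.05, 46.1 and 46.8 CPM in control replicates 1 to 4 and 53.3, 53.7, 52.5 and 55.9 CPM in knockdown replicates 1 to 4. All knockdown libraries were above all control libraries, and Slc1a4 rose by 0.19 (SE 0.05, edgeR adjusted p = 0.00739).

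Slc1a5 encodes ASCT2, the main sodium-coupled glutamine exchanger of many dividing cells (ncbi_20514, chromosome 7, 16781334 to 16798274, plus strand). It measured 123, 121.5, 126 and 120.5 CPM in control replicates 1 to 4 and 116.5, 115, 121 and 108.5 CPM in knockdown replicates 1 to 4. Knockdown replicate 3 reached the lower edge of the controls. The log2 fold change of -0.094 did not pass (SE 0.04, edgeR adjusted p = 0.0974). The ratio of Slc1a4 to Slc1a5, in FPKM within each library, was 0.237 to 0.253 in controls and 0.275 to 0.319 in the knockdown, without overlap. That ratio needs no scaling between libraries, and it is given without a test because each gene's values were already known.

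Slc38a1 and Slc38a2 encode SNAT1 and SNAT2, sodium-coupled importers of glutamine, alanine and other small neutral amino acids. SNAT2 is the form classically induced by amino acid starvation. Slc38a2 (ncbi_67760, chromosome 15, 96687392 to 96699728, minus strand) measured 278, 267, 242 and 281 CPM in control replicates 1 to 4 and 249, 257, 245 and 243 CPM in knockdown replicates 1 to 4. Control replicate 3 was the lowest of all 8 libraries, and the other controls were above every knockdown library. Slc38a2 fell by 0.10 on the log2 scale (SE 0.04, edgeR adjusted p = 0.0409) in the knockdown, to 93.1% of control (95% interval 88.4% to 98.0%). This call lay close to the threshold: DESeq2 (-0.11, DESeq2 adjusted p = 0.0695) and limma voom (-0.10, voom adjusted p = 0.07) did not make it. It was kept without control replicate 3 (-0.15) or knockdown replicate 2 (-0.12). It was lost in the other 6 fits that left out a library (-0.10 to -0.078, edgeR adjusted p up to 0.168).

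Slc38a1 (ncbi_105727, chromosome 15, 96571418 to 96643438, minus strand) was nearly absent, with 27 to 54 counts per library. It measured 3.32, 2.96, 2.16 and 2.82 CPM in control replicates 1 to 4 and 2.78, 2.67, 2.16 and 3.44 CPM in knockdown replicates 1 to 4. The groups covered the same range. The log2 fold change was -0.033 (SE 0.21, edgeR adjusted p = 0.942). Its 95% interval of -0.46 to 0.39 was wide at this depth and spanned changes of either sign.

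Slc6a9 encodes GlyT1, the sodium- and chloride-coupled glycine transporter (ncbi_14664, chromosome 4, 117835258 to 117869305, plus strand). It measured 20.4, 19.7, 21.8 and 18.5 CPM in control replicates 1 to 4 and 20.8, 24.6, 22.2 and 24.8 CPM in knockdown replicates 1 to 4. Knockdown replicate 1 lay within the control range and the other 3 above it. The log2 fold change of 0.20 (SE 0.08, edgeR adjusted p = 0.0857) did not pass, and passed only when knockdown replicate 1 was left out (0.24, edgeR adjusted p = 0.0463). Of its 5141 annotated exon bases, 1429 are shared with Ccdc24, 511 with Gm17114 and 46 with B4galt2, all on the opposite strand in GENCODE M21. Nothing in the sources used here gives the counting strand, so whether reads of those genes entered its counts is not known. Its counts were whole in every library, so no fractional sharing of reads shows in them. The other 9 genes share no exon bases with another annotated gene.

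The balance of rises and falls among the 10 genes depended on how libraries were scaled. With library totals alone 2 rose (Slc3a2 and Slc7a11) and 3 fell (Slc38a2, Slc1a5 and Slc7a1), and their median was 0.008. On the authors' FPKM, tested with limma as log2(FPKM + 0.5), a scale that understates changes of low genes, 1 rose (Slc3a2) and 2 fell (Slc38a2 and Slc1a5). Slc7a5 and Slc1a4 lost their calls under both, with estimates of 0.064 and 0.063 for Slc7a5 and of 0.14 and 0.13 for Slc1a4. The median of all genes was then -0.06 and -0.05. The split of calls over all genes was 1285 higher and 1059 lower with TMM factors, 766 and 1951 with library totals, and 598 and 1508 on FPKM. Signs held under both scalings for 9 of the 10 genes, Slc7a6 being the exception.

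**Figure D4:**
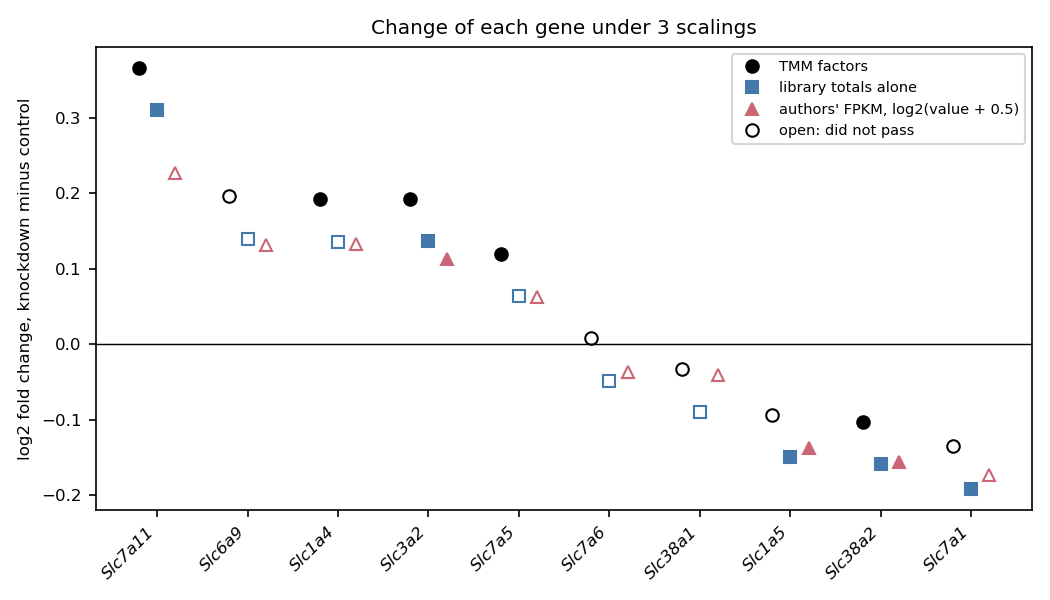
Log2 fold change, knockdown minus control, of each transporter gene with TMM factors, with library totals alone and on log2(FPKM + 0.5), filled where the adjusted p was under 0.05. Slc3a2 is filled in all 3, and Slc7a6 is the gene whose sign changes.

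Genes known to control these transporters moved in both directions, with 8 of 23 higher and 2 lower, beside 11.1% and 9.15% of all tested genes. The highest-ranked rises were Nupr1, a stress-induced chromatin protein (0.25, SE 0.04, edgeR adjusted p = 1.41e-06), Myc, which drives Slc7a5 and Slc1a5 in growing cells (0.21, SE 0.03), and Ddit3, encoding CHOP (0.18, SE 0.03). Eif2ak3, which encodes PERK, fell by 0.88 on the log2 scale (SE 0.20), its group means being 4.37 and 2.37 CPM, and Keap1, the NRF2 inhibitor, fell by 0.19 on the log2 scale (SE 0.07, edgeR adjusted p = 0.0425). Keap1 was not called by DESeq2 or voom, on FPKM, or without control replicate 1, 2 or 4 or knockdown replicate 3 or 4, with leave-out estimates of -0.19 to -0.15 in those fits. Atf4 itself stood at 569.7 ± 11.1 CPM (control) and 587 ± 4.45 CPM (knockdown; SD, n = 4 each, edgeR adjusted p = 0.302), with a sign that turned under library totals and on FPKM. In CPM every knockdown library (582 to 593) was above every control library (553 to 578), as for 11.5% of all tested genes. In FPKM the groups of Atf4 overlapped. Nfe2l2, encoding NRF2, was 65.5 ± 4.48 and 61.3 ± 3.60 CPM, and Trp53, whose product represses Slc7a11, was 292 ± 9.10 and 283 ± 9.94 CPM (SD, n = 4 each). Neither passed (edgeR adjusted p = 0.207 and 0.364), though both were called lower under library totals. The list median was 0.043, and under library totals 5 rose and 7 fell.

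In the list on cystine use and glutathione, 4 of 20 genes rose and 4 fell, beside 11.1% and 9.15% of all tested genes, with a median of -0.066. The rises were thioredoxin Txn1 (0.16, SE 0.03, edgeR adjusted p = 6.65e-05), the cysteine-producing lyase Cth (0.16, SE 0.04), and the glutathione peroxidases Gpx4 (0.10, SE 0.03) and Gpx1 (0.080, SE 0.03). The falls were thioredoxin reductase Txnrd1 (-0.43, SE 0.03, edgeR adjusted p = 4.10e-13), the glutathione-degrading Chac2 (-0.58, SE 0.13), Aifm2, a ferroptosis suppressor that acts through coenzyme Q (-0.29, SE 0.07), and Cbs, an enzyme of transsulfuration at 1.80 CPM in controls (-1.06, SE 0.32). Gpx1 and Cbs stand outside the naming rule and were added after their values were seen. The subunits of the enzyme that starts glutathione synthesis, Gclc (-0.20, edgeR adjusted p = 0.246) and Gclm (-0.076, edgeR adjusted p = 0.43), did not pass. All 4 rises were small, and 1 rose and 8 fell under library totals, where Txn1 was the gene that kept its call. Only 2 rose when control replicate 1 or 2, or knockdown replicate 3, was removed. Gpx4 (0.085 to 0.094) lost its call in those 3 fits and without knockdown replicate 4, and Gpx1 (0.061 to 0.083) in those 3 and without knockdown replicate 1 or 2. Cbs (-0.93 to -0.83) lost it when control replicate 2 or knockdown replicate 1 or 4 was removed.

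Enzymes that make or use glutamine, serine, glycine and asparagine had 9 of 20 tested genes higher and 2 lower, beside 11.1% and 9.15% of all tested genes, and a median of 0.069. The serine synthesis enzymes Phgdh (0.17, SE 0.03, edgeR adjusted p = 8.65e-06) and Psph (0.20, SE 0.04) rose, as did Asns, which makes asparagine (0.099, SE 0.03, edgeR adjusted p = 0.0116). Asns was named after its values were seen. It lost its call without knockdown replicate 1 (0.086). The falls were Glul, glutamine synthetase (-0.18, SE 0.03), and the mitochondrial aspartate transaminase Got2 (-0.12, SE 0.03). Under library totals and on FPKM 3 of the list rose instead of 9, and Asns did not pass in either.

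Of 38 tested genes that sense amino acids upstream of mTORC1, 3 rose and 3 fell, a share no higher than the 20.2% of all genes. Lars, the leucyl-tRNA synthetase that also senses leucine (0.21, SE 0.04, edgeR adjusted p = 3.97e-05), and the GATOR2 members Sec13 (0.14, SE 0.03) and Seh1l (0.15, SE 0.05) rose. The leucine sensor Sesn2 (-0.40, SE 0.08, edgeR adjusted p = 0.000156), its relative Sesn1 (-0.88, SE 0.20) and the RagC/D activator Flcn (-0.22, SE 0.05) fell. The list median was -0.039. Seh1l lost its call with DESeq2, under library totals, on FPKM and without control replicate 1 or 3 or knockdown replicate 1 or 2 (0.11 to 0.13). The number lower was 6 under library totals, 5 on FPKM and 5 without knockdown replicate 1.

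Beyond the 10 genes, 19 of 47 other amino acid transporter genes had enough counts to test, and 2 rose and 1 fell, with a median of 0.084. Slc7a3, the cationic transporter CAT3, rose by 0.20 (SE 0.05, edgeR adjusted p = 0.00379), with means of 69.2 ± 5.41 CPM in control and 79.3 ± 3.69 CPM in knockdown libraries (SD, n = 4 each). Slc1a6, the glutamate transporter EAAT4, rose by 0.64 (SE 0.16, edgeR adjusted p = 0.00259), with means of 3.62 ± 0.143 and 5.66 ± 0.565 CPM (SD, n = 4 each). Ctns, which exports cystine from lysosomes, fell by 0.39 (SE 0.12, edgeR adjusted p = 0.017) and lost its call without control replicate 2 or 3 or knockdown replicate 4 (-0.35 to -0.26). Slc7a3 did not pass on FPKM (0.14). A share of 3 in 19 is near the 20.2% of all genes. Another 12 of the 47, among them Slc7a9 and Slc6a18, had no count in any library.

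**Figure D5:**
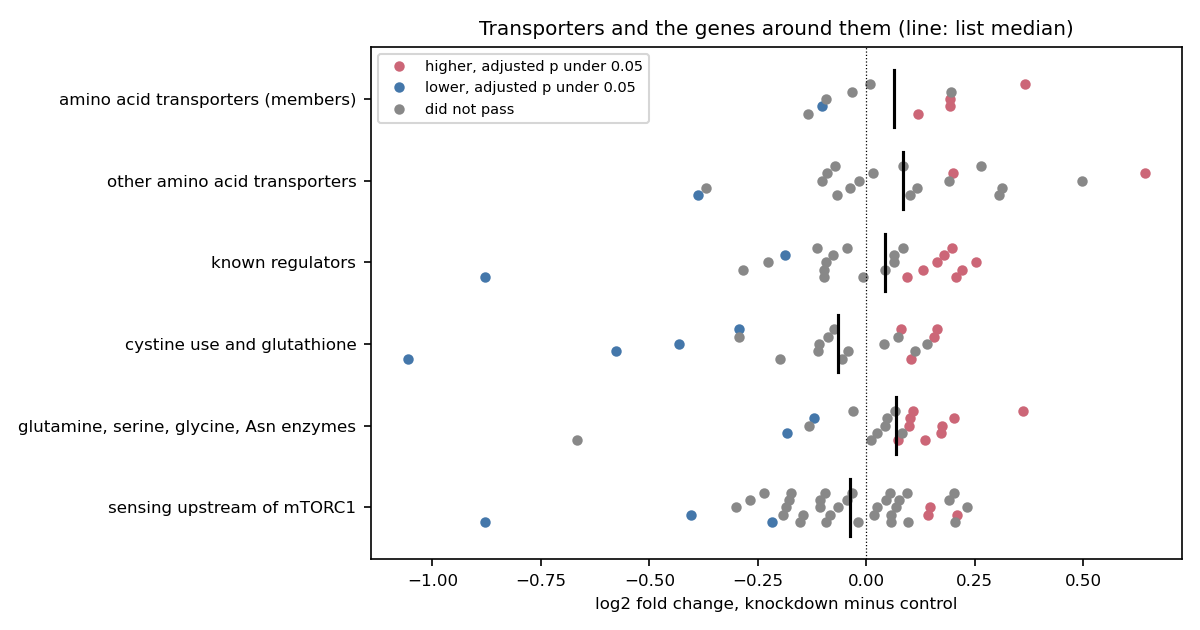
Log2 fold change, knockdown minus control, of tested genes in the transporter group and 5 related lists, with points for genes, coloured by edgeR call at an adjusted p of 0.05, and vertical lines for list medians. The members' median is 0.064 and that of the cystine and glutathione list -0.066.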

How the data were processed

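Poly(A)-selected RNA was sequenced from 4 control and 4 knockdown libraries of TCMK-1 cells. The deposited values are expected counts per gene, 6.52% of them not whole (tolerance 1e-09), per the file headers and the values. The authors' FPKM for the same libraries are in the same table. Per the submitters' processing notes, which state neither role nor order, the authors used HISAT2 2.4 and Bowtie2 2.2.8, StringTie 1.3.1 and RSEM, fastp 0.18.0, and edgeR and DESeq2, on build GRCm38.p6. No source used here names the annotation release or a strand setting.

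Deposited expected counts were rounded and fitted on the whole table with edgeR 4.0.16 (R 4.3.3): TMM factors, default expression filter, robust quasi-likelihood F-test (two-sided, no covariates), Benjamini-Hochberg adjustment over 11576 genes, threshold 0.05. SEs came from the fold change and F, with 95% intervals. CPM use TMM library sizes. The procedure was tested on simulated data, where it called 6 of 50 genes given a log2 change of 0.15 and 22 of 50 given 0.3. It called 40 of 49 at 0.6, 46 of 48 at 1 and 2 of 11280 unchanged genes. Small changes were thus mostly missed there. In that simulation 11280 of 11477 genes were unchanged, while 20.2% of tested genes were called in the data. The changed genes were drawn at all levels of expression, so these shares need not hold for the members. Replicates of a group differed by more than sampling noise (chi-square per degree of freedom 1.94 to 3.94). Depth of 11560977 to 16059158 counts limits precision for Slc38a1 and Slc7a11, and floors of 3 counts cover counting error only.

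Members and lists were chosen with earlier results of these data known. Of 196 list genes, 194 were matched, 5 of them under another symbol through the RefSeq gene table. Named were all 10 members, Rap1gds1, Atf4, Nfe2l2 and Trp53, and of each list every called gene or, above 6, the 3 rises and 3 falls with the smallest adjusted p. Alternatives were RLE size factors, library totals, other filters, DESeq2 1.42.0, limma 3.58.1 (voom, and trend on log2(FPKM + 0.5)), a threshold of 0.01, a term for replicate number, and leaving out single libraries. Protein sequences were not used here. A gene named by this rule is not reported here.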

Additional observations from a re-analysis of the deposited data

Results flagged for a closer look

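Among 20 groups of 4 libraries, 1 for each transporter gene and group, 2 held a library far from the other 3. Chance flags about 1 group in 20. Slc7a5 was at 199.5 CPM in knockdown replicate 2, against 212 to 213 CPM in the other knockdown libraries. Slc7a6 was at 40.4 CPM in control replicate 4, against 49.3 to 50.3 CPM in the other controls.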

How the results depend on the processing

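Rap1gds1 and Slc3a2 kept their direction and call in all 17 alternatives, with Rap1gds1 at -2.65 to -2.58 when a library was left out. For the 10 transporters, library totals alone gave 2 higher and 3 lower, FPKM 1 higher and 2 lower, and an adjusted p under 0.01 gave 2 higher and 0 lower with edgeR (3 lower at an unadjusted p under 0.05). DESeq2 and limma voom gave 0 lower (2 and 3 at an unadjusted p under 0.05) and 4 higher each. Leaving out 1 library gave 2 to 4 higher and 0 to 1 lower. For other transporters, 1 rose with a mean of at least 5 CPM and 1 on FPKM, 0 fell at 0.01 (1 at an unadjusted p under 0.05), and leave-outs gave 2 higher and 0 to 1 lower. For regulators, 5 rose and 7 fell under library totals, 4 rose on FPKM, 1 fell with a mean of at least 5 CPM, with DESeq2 and at 0.01, and leave-outs gave 7 to 8 higher and 1 to 3 lower. For the cystine and glutathione list, 1 rose and 8 fell under library totals, 1 rose and 7 fell on FPKM, 2 rose at 0.01, and leave-outs gave 2 to 4 higher and 3 to 5 lower. For the enzymes, 3 rose under library totals, 3 on FPKM and 5 at 0.01, and leave-outs gave 6 to 9 higher and 2 to 3 lower. For amino acid sensing, 6 fell under library totals, 5 on FPKM and 5 with the replicate block, and leave-outs gave 2 to 3 higher and 3 to 5 lower. Leave-outs spanned -0.055 to 0.043 for Slc7a6 and -0.15 to 0.065 for Slc38a1. Signs reversed, without a call, for Slc7a6 (-0.048 under library totals, -0.037 on FPKM, -0.055 without control replicate 4, -0.010 and -0.0079 without knockdown replicates 2 and 4), Slc38a1 (0.060 without control replicate 1, 0.065 without knockdown replicate 3) and Atf4 (-0.013 under library totals, -0.012 on FPKM). The cause of these shifts was not tested. Same-numbered libraries deviated together with correlations of 0.056, 0.083, -0.036 and 0.056 for replicates 1 to 4. Libraries of different number had -0.062 to 0.038. The labels do not say that a number marks a shared culture or day, so the main fit left it out, and whether numbers mark pairs was not settled. The replicate block gave 4 transporters higher and 1 lower, and a log2 fold change of -2.62 for Rap1gds1. Over all genes it called 1425 higher and 1235 lower, against 1285 and 1059 in the main fit. Depth limits Slc38a1 most, at 27 to 54 counts per library.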
